A study of Mus musculus with 6 samples.

Results

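The genes described here are the fibrillar collagens of bone and fibrous tissue, namely Col1a1 and Col1a2 (collagen I), Col3a1 (collagen III), Col5a1, Col5a2 and Col5a3 (collagen V) and Col24a1 (collagen XXIV), together with Sparc and Ifitm5, which encode non-collagenous proteins made by bone cells. They were chosen by symbol, with earlier results of these data known, and all 9 were found among 24346 symbols in every library and among the 14766 genes tested. The tissue was the nasomaxillary complex, the nose and upper jaw, of E17.5 mouse embryos, and it was profiled by stranded messenger RNA sequencing. The control group held 3 libraries of genotype Pth1r f/f, which carry floxed alleles of the receptor for parathyroid hormone and its related protein and no Cre. The mutant group held 3 libraries of genotype Wnt1-Cre:Pth1r f/f, which carry the same floxed alleles and a Cre driven by Wnt1 in the neural crest. Treatment is given as none in both groups. Because Cre is present in the mutant group alone, an effect of the transgene and an effect of recombined Pth1r cannot be told apart, and cells that do not come from the neural crest are not targeted. Nothing in the labels ties a library to an embryo or litter of its own, so each p-value reflects the spread of these libraries alone, which may be technical. Sex-linked genes, described below, read 1 mutant library as female and the others as male, so the mutant spread is not that of a single embryo.

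Fibrillar collagens are rope-like proteins made of 3 chains wound into a triple helix, in which glycine recurs in every Gly-X-Y triplet, and the secreted molecules assemble into the fibrils that carry load in bone, skin, tendon and fascia. Collagen I, usually a mixture of chains from Col1a1 and Col1a2, is the bulk of bone matrix. Collagen III joins it in soft, extensible tissue, and collagen V sits inside collagen I fibrils and limits their width. Collagen XXIV is a minor fibrillar collagen associated with developing bone. Sparc (osteonectin) binds collagen and calcium and is made by osteoblasts and by many fibroblasts. Ifitm5 (Bril) is a small membrane protein found largely in osteoblasts, and a mutation of its human counterpart causes a form of brittle bone disease, as mutations of the collagen I genes do.

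The 9 genes lie on several chromosomes (GENCODE M21, GRCm38, the same coordinates as mm10). Col1a1 lies at chr11:94936224-94953042 and Sparc at chr11:55394500-55423183. Col1a2 lies at chr6:4504814-4541544, Col5a1 at chr2:27886425-28039514, Col5a3 at chr9:20770050-20815067, Col24a1 at chr3:145292472-145552011 and Ifitm5 at chr7:140948958-140950291. Col3a1 (chr1:45311538-45349706) and Col5a2 (chr1:45374321-45503282) are neighbours, 24614 bp apart and on opposite strands. The collagen members share an exon pattern. In the principal transcripts, internal coding exons whose length is a multiple of 9 bases, the unit that encodes 1 Gly-X-Y triplet, made up between 76.6% (Col5a1) and 90.0% (Col1a2) of the internal coding exons, against 14.3% over 157438 internal coding exons of 16962 genes. Exons of exactly 54 bases numbered 21 of 49 in Col1a1, 24 of 50 in Col1a2, 24 of 49 in Col3a1 and 33 of 58 in Col24a1. Sparc had 0 of 7 such multiples, and Ifitm5, with 2 exons, has no internal exon. The annotation places other transcripts over some members, including Gm45717 on the strand of Ifitm5, 9530034A14Rik opposite Col24a1 and 2810430I11Rik opposite Col5a1, and the sources used here do not state how the authors assigned shared reads.

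The promoter table from RefSeq (GRCm38.p6) matched 7 of the 9 genes. Col1a1 and Col5a2 were not matched. The 250 bases upstream of the listed start are shown for Col1a2, Sparc and Ifitm5, whose levels moved together across libraries, and for Col3a1 and Col24a1, whose levels did not follow them. Their windows are chr6:4505368-4505617 (plus strand), chr11:55420081-55420330 (minus strand), chr7:140950244-140950493 (minus strand), chr1:45311288-45311537 (plus strand) and chr3:145292222-145292471 (plus strand). The starts listed by RefSeq are not always the outer ends of the GENCODE genes given above: the windows of Col1a2 and Sparc lie inside those spans and that of Ifitm5 lies partly inside, while those of Col3a1 and Col24a1 adjoin the gene. Capitals mark matches on either strand to the motifs listed after the sequences.
Col1a2: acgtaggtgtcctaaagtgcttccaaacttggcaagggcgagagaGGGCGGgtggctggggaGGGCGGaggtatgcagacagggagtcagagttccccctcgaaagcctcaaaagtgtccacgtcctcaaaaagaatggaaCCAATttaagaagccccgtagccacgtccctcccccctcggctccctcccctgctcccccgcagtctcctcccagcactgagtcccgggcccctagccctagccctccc
Sparc: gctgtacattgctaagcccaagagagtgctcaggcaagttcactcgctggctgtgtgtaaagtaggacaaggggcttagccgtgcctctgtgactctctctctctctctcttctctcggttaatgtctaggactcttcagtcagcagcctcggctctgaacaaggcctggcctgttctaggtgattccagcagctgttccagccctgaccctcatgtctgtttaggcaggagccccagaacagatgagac
Ifitm5: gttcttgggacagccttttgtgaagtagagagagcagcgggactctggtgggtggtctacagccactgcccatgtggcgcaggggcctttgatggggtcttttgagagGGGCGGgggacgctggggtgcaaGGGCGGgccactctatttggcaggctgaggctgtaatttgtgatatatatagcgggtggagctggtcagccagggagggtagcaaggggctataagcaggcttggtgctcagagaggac
Col3a1: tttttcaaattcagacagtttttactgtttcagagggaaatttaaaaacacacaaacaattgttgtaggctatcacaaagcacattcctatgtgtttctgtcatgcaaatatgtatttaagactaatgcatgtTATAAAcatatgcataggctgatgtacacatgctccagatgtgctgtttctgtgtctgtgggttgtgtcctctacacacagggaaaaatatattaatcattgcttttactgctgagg
Col24a1: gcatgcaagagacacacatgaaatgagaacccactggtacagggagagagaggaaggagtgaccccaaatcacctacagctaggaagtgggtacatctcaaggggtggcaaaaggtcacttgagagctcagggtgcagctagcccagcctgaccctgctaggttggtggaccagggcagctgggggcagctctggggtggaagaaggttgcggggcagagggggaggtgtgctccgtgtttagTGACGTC
The search covered the table's 300 bases, 250 before and 50 after the start. The letters GGGCGG (GC box) were present in 35.7% of 32851 such windows and in 4 of the 7 matched members. These were Col1a2, Col5a1, Col5a3 and Ifitm5, each with matches at 2 or more positions. Sparc, Col3a1 and Col24a1 had no match. CCAAT was present in 37.4% of windows and in Col1a2 and Col5a3. TATAAA was present in 13.6% of windows and, of the 7, in Col3a1, 117 bases upstream of the start. TGACGTCA, the letters of a cyclic AMP response element, was present in 1.79% of windows and, of the 7, in Col24a1, beginning 7 bases upstream and ending past the printed stretch. TGTGGT (Runx core) was present in 16.8% of windows and in Sparc, after the start, and TGACTCA (AP-1) was present in 5.2% of windows and in none of the 7. These matches are letters in a window and were not measured as bound sites.

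Levels are given as FPKM, fragments scaled to transcript length and to the mapped fragments of the library, which allows genes of different length to be compared. The order of levels was the same in all 6 libraries, from Col1a1 through Col1a2, Sparc, Col3a1, Col5a2, Col5a1, Ifitm5 and Col24a1 to Col5a3. Over the 6 libraries Col1a1 ranged from 3616 to 5328 FPKM and Col5a3 from 9.08 to 17.7 FPKM. The ranges of neighbours in this order overlapped for Col1a1 with Col1a2 and for Col5a2 with Col5a1, and did not overlap for the other neighbours. By mean FPKM, Col1a1 ranked 3 and Col1a2 ranked 7 among all symbols, and Sparc ranked 20. Together the 9 genes held between 1.85% and 2.31% of all FPKM in a library. Total FPKM ran from 514693 to 546322 per library. The spacing of low values put library sizes between 0.671 (mutant replicate 3) and 1.11 (control replicate 2) relative to control replicate 1, an estimate carried by the commonest ratio, which held in 29.9% to 34.9% of the low genes compared, and the absolute depth is not given in the files.

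**Figure D1:**
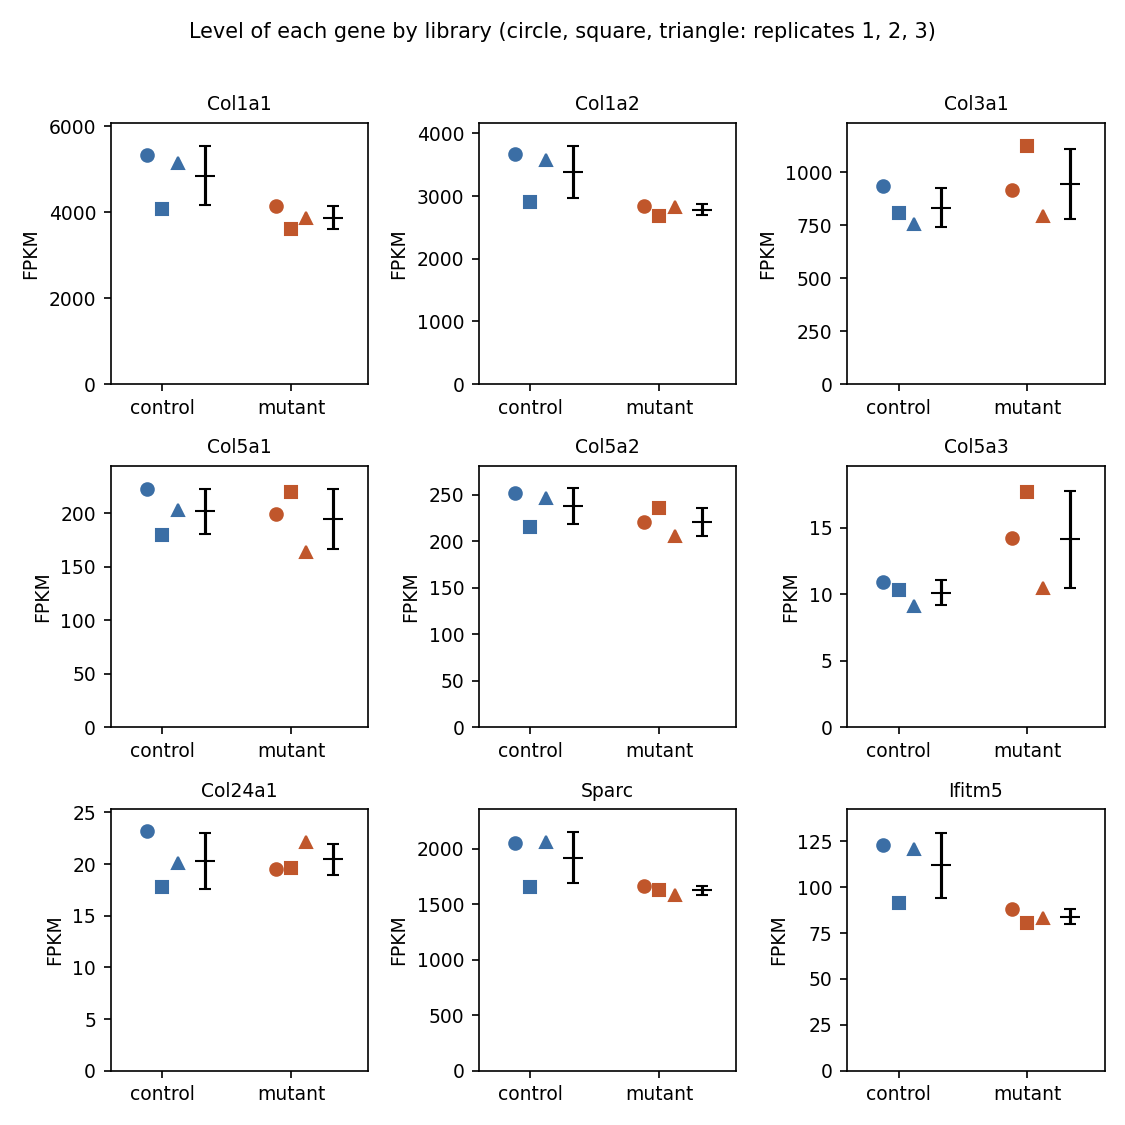
FPKM (vertical axes, from 0) of the 9 genes in each of 3 control (blue) and 3 mutant (orange) libraries, with the group mean and SD in black beside the points. Col1a2 and Ifitm5 have no overlap between groups, control replicate 2 lies close to the mutant libraries for Col1a1, Col1a2, Sparc and Ifitm5, and mutant replicate 2 is the highest library for Col3a1 and Col5a3.

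The comparison of mutant with control asked which transcripts differ in this tissue between the genotypes. None of the 9 genes passed a limma adjusted p of 0.05 over all 14766 genes, in either direction, against 0.264% of all genes (0.203% lower and 0.0610% higher in mutant). At an unadjusted limma p under 0.05 there were 4 members lower in mutant (Col1a1, Col1a2, Sparc and Ifitm5, against 5.96% of all genes in that direction) and 1 higher (Col5a3, against 5.35%), which makes 5 of 9 against 11.3% of all genes. The 4 lower genes were correlated over the 6 libraries (Pearson r from 0.965 to 0.994), so they do not count as 4 separate observations. The members were also chosen with earlier results of these data known, so their share against that of all genes is a description only. The mean changes of collagen I, Sparc and Ifitm5 lay between -0.23 and -0.40 on the log2(FPKM + 1) scale. Those of collagens III, V and XXIV lay between -0.11 and 0.42. Over all members 6 of 9 changes were negative, with a median of -0.11, against 50.8% negative and a median of -0.0020 over all genes tested.

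Col1a1, which encodes the alpha 1 chain of collagen I, measured 5328, 4065 and 5149 FPKM across the control libraries, listed by replicate number here and below, and 4142, 3616 and 3855 FPKM across the mutant libraries. Control replicate 2 was lower than mutant replicate 1, so the groups overlapped. The means were 4847 ± 683 FPKM in control and 3871 ± 263 FPKM in mutant (SD, n = 3 each), a log2 difference of -0.32 with a 95% interval from -0.60 to -0.037 and a limma adjusted p of 0.388. Col1a2, which encodes the alpha 2 chain, stood at 3677, 2907 and 3576 FPKM in the controls against 2842, 2688 and 2819 FPKM in the mutants. Here every mutant library was below every control library, though control replicate 2 was again near the mutant values. Its log2 difference was -0.28 (95% interval -0.51 to -0.038, limma adjusted p = 0.382). Non-overlapping groups with lower mutant values were seen for 2 of the 9 members, Col1a2 and Ifitm5, against 9.16% of all genes tested (17.0% in either direction).

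Sparc, the collagen-binding glycoprotein of bone and connective tissue, stood at 2051, 1652 and 2059 FPKM in the controls against 1664, 1628 and 1586 FPKM in the mutants. The highest mutant value exceeded the lowest control value by a small margin. The log2 difference was -0.23 (95% interval -0.46 to -0.0086, limma adjusted p = 0.428), and the mutant mean was 0.847 times the control mean. Ifitm5, the osteoblast membrane protein gene, had the lowest ratio of mutant to control mean FPKM of the 9, at 0.750. It stood at 123, 91.5 and 121 FPKM in the controls against 88.2, 80.4 and 83.0 FPKM in the mutants, with all mutant values below all control values. Its log2 difference was -0.40 (95% interval -0.66 to -0.13, limma adjusted p = 0.284). In these 4 genes the mutant libraries lay closer together than the controls, with coefficients of variation from 2.40% (Sparc) to 6.80% (Col1a1) in mutant and from 12.1% (Sparc) to 15.8% (Ifitm5) in control.

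Col3a1, the collagen of soft fibrous tissue and vessel walls, stood at 933, 808 and 756 FPKM in the controls against 917, 1122 and 793 FPKM in the mutants. The groups overlapped, and mutant replicate 2 stood above the other 5 libraries. The log2 difference was 0.17 (95% interval -0.15 to 0.49, limma adjusted p = 0.692) and was 0.040 without mutant replicate 2, 0.11 without control replicate 3 and 0.29 without mutant replicate 3. Col5a1, whose product is the commonest chain of collagen V, stood at 223, 180.0 and 203 FPKM in the controls against 199, 220 and 164 FPKM in the mutants. Its values were interleaved between genotypes, with a log2 difference of -0.058 (95% interval -0.34 to 0.22, limma adjusted p = 0.900). It was 0.015 without control replicate 1, 0.058 without mutant replicate 3 and -0.15 without mutant replicate 2. Col5a2, which encodes the partner chain, stood at 252, 216 and 246 FPKM in the controls against 221, 236 and 206 FPKM in the mutants, also overlapping (log2 difference -0.11, 95% interval -0.29 to 0.077, limma adjusted p = 0.670). Leaving out 1 library moved the difference of Col5a2 to between -0.056 (without mutant replicate 3) and -0.17 (without control replicate 2), and it was -0.062 without control replicate 1.

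Col5a3, the least abundant collagen V chain here, stood at 10.9, 10.3 and 9.08 FPKM in the controls against 14.2, 17.7 and 10.5 FPKM in the mutants. Mutant replicates 1 and 2 exceeded all controls, while mutant replicate 3 fell within the control range. The log2 difference was 0.42 (95% interval 0.023 to 0.815, limma adjusted p = 0.421). Leaving out mutant replicate 2 gave 0.25, and leaving out replicate 3 gave 0.61. The ratio of Col5a3 to Col5a1 within a library, chosen after its values were seen, was 0.0504 ± 0.0064 in control and 0.0718 ± 0.0084 in mutant (SD, n = 3 each).

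Col24a1, the minor bone-associated fibrillar collagen, stood at 23.2, 17.8 and 20.1 FPKM in the controls against 19.5, 19.6 and 22.2 FPKM in the mutants. All 3 mutant values fell inside the control range. The log2 difference was 0.013 with a 95% interval from -0.22 to 0.25 (limma adjusted p = 0.979), so differences inside that interval in either direction are not excluded by these libraries. Its sign changed with small alterations of the fit, for example to -0.077 without control replicate 2.

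**Figure D2:**
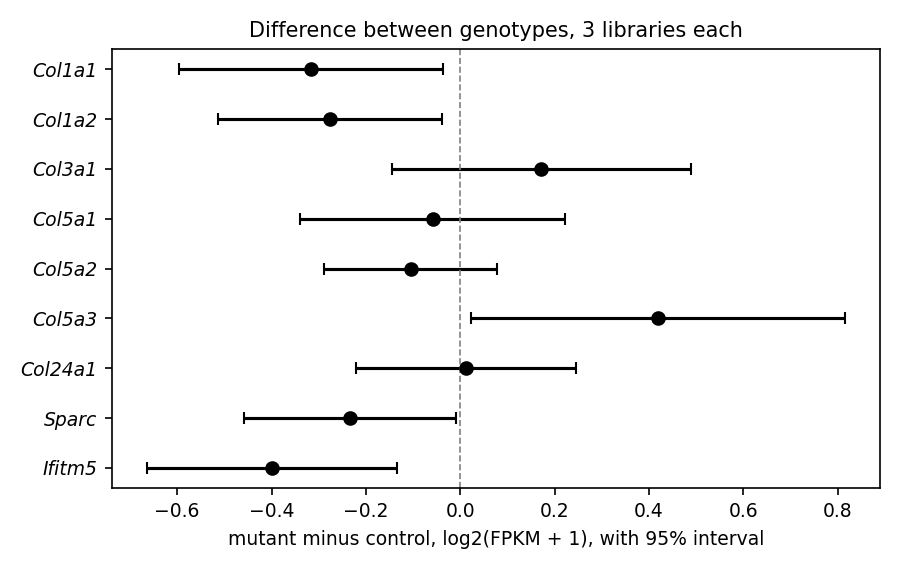
Difference between mutant and control for each of the 9 genes on the log2(FPKM + 1) scale (horizontal axis), with the limma 95% interval as a bar and 0 as the dashed line. The intervals of Col1a1, Col1a2, Sparc and Ifitm5 lie below 0, that of Col5a3 lies above 0, and those of Col3a1, Col5a1, Col5a2 and Col24a1 include 0, before adjustment over all genes.

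Ratios of members within a library do not depend on how libraries were scaled to each other. For 3 against 3 libraries the exact two-sided permutation test cannot go below 0.10, so none of the 5 ratios could reach 0.05. The ratio of Col1a2 to Col1a1, the messages for the chains of collagen I, was 0.690, 0.715 and 0.695 in control and 0.686, 0.743 and 0.731 in mutant, with overlapping groups (exact permutation p = 0.4). The log2 difference of this ratio between the groups was 0.041. The ratio of Col3a1 to Col1a1 was 0.175, 0.199 and 0.147 in control and 0.221, 0.310 and 0.206 in mutant. All mutant ratios exceeded all control ratios, and the mean was 41.6% higher, at 0.246 ± 0.056 against 0.174 ± 0.026 (SD, n = 3 each, exact permutation p = 0.1, 0.167 adjusted over the 5 ratios).

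The ratio of Col24a1 to Col1a1 was 0.00435, 0.00437 and 0.00390 in control and 0.00472, 0.00542 and 0.00575 in mutant. These values were also separated (log2 difference 0.33, exact permutation p = 0.1, 0.167 adjusted over the 5 ratios). The ratio of Ifitm5 to Sparc was 0.0599, 0.0554 and 0.0588 in control and 0.0530, 0.0494 and 0.0523 in mutant, every mutant value being lower (log2 difference -0.17, exact permutation p = 0.1, 0.167 adjusted over the 5 ratios). The ratio of Col5a2 to Col5a1 ranged from 1.07 to 1.26 over the 6 libraries and overlapped between groups (exact permutation p = 0.6). Within the limits of 3 libraries a group, Col1a1 message was thus lower relative to Col3a1 and Col24a1 in every mutant library than in any control library. Both ratios have Col1a1 as denominator, so they are not separate observations. For Col3a1 the margin was narrow, 0.199 in control replicate 2 against 0.206 in mutant replicate 3.

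**Figure D3:**
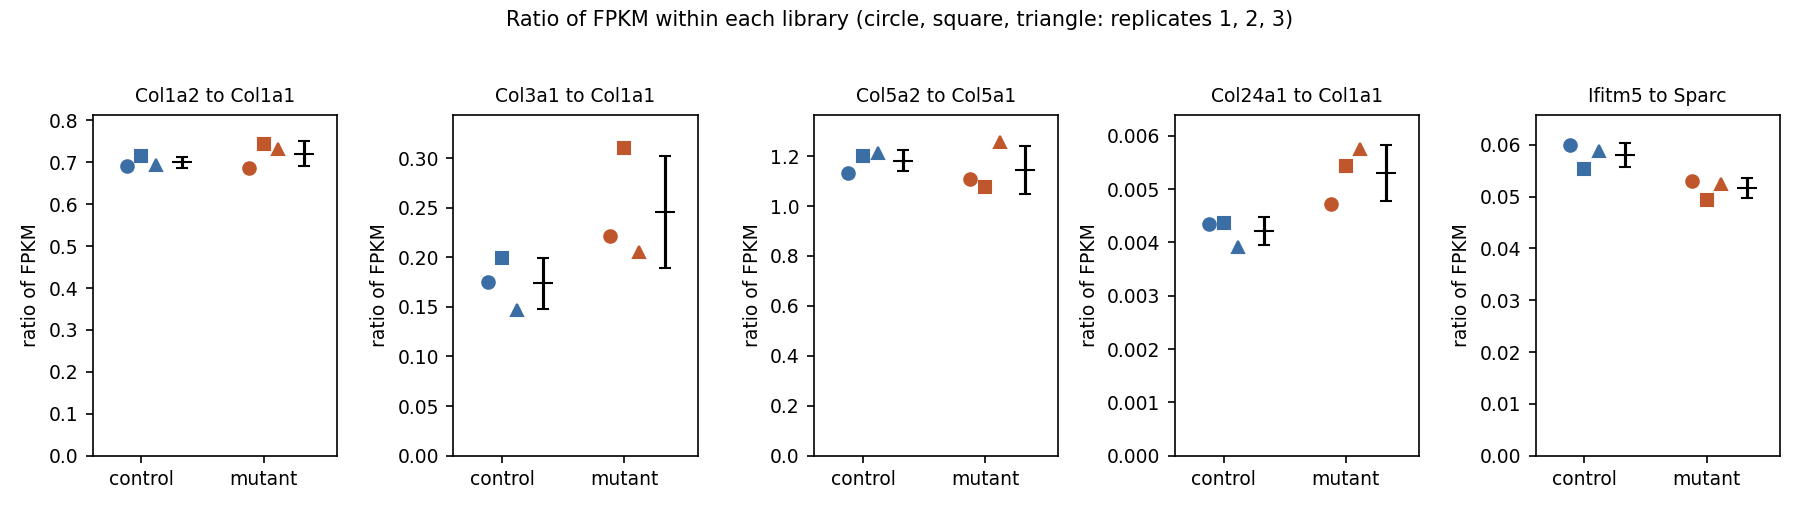
Ratio of FPKM within each library for 5 pairs of genes (vertical axes, from 0), in 3 control (blue) and 3 mutant (orange) libraries, with group mean and SD in black. The ratios of Col3a1 to Col1a1, Col24a1 to Col1a1 and Ifitm5 to Sparc are separated between groups, and those of Col1a2 to Col1a1 and Col5a2 to Col5a1 overlap.

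Across libraries the 9 genes did not vary as a block. Relative to the control mean on the log2 scale, Col1a1, Col1a2, Sparc and Ifitm5 were raised by 0.086 to 0.15 in control replicates 1 and 3. They stood between -0.21 and -0.27 in control replicate 2 and between -0.20 and -0.46 in the 3 mutant libraries. Much of the control spread of these genes was therefore in 1 library. Without control replicate 2 the log2 differences were -0.44 for Col1a1, -0.38 for Col1a2, -0.34 for Sparc and -0.54 for Ifitm5, and the limma adjusted p of Ifitm5 was 0.0544. Leaving out control replicate 1 instead gave -0.24, -0.21, -0.18 and -0.33, in the same order. Leaving out control replicate 3 gave -0.27, -0.23, -0.18 and -0.34. The limma adjusted p of Ifitm5 was 0.446 and 0.612 in these 2 fits. In each of them 1 member was lower at an unadjusted limma p under 0.05, against 5 without control replicate 2. Col3a1 and Col5a3 followed another order, with mutant replicate 2 at 0.44 and 0.75 and mutant replicate 3 at -0.064 and 0.047. Col5a1 and Col5a2 had their lowest values in mutant replicate 3, at -0.29 and -0.20, and Col24a1 its highest in control replicate 1, at 0.19.

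**Figure D4:**
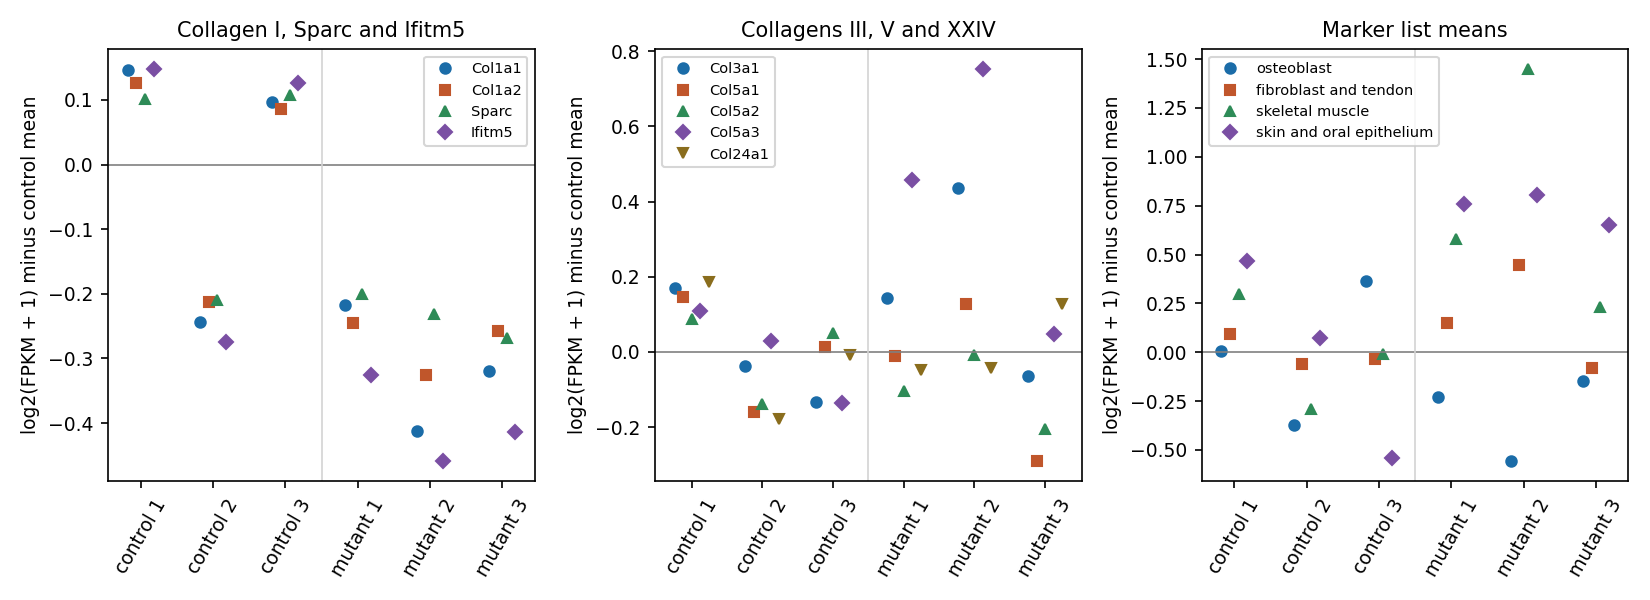
Difference of each library from the control mean on the log2(FPKM + 1) scale (vertical axes) for collagen I, Sparc and Ifitm5, for collagens III, V and XXIV, and for the mean of 4 marker lists. The 4 genes of the left panel lie below 0 in control replicate 2 and in all mutant libraries, and Col3a1, Col5a3 and the skeletal muscle list are highest in mutant replicate 2.

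Markers of the cell types in the dissection differed between the same libraries. In bulk tissue, fewer cells of a type and less RNA per cell cannot be told apart. No marker of any list was at 0 in all libraries. Among all genes tested, 50.8% of changes were negative and 0.264% of genes were called in either direction. The osteoblast list (8 of 8 markers tested, 6 negative and 2 positive changes, 0 called) stood at 0.0042, -0.37 and 0.37 in control replicates 1 to 3. In mutant replicates 1 to 3 it stood at -0.23, -0.56 and -0.15. These means leaned on Bglap and Bglap2, with log2 differences of -1.41 and -1.48. The other markers lay between -0.27 (Alpl) and 0.72 (Mepe), with Phex at 0.38. The summed level of the list ran from 1004 to 1480 FPKM in control and from 1021 to 1288 FPKM in mutant. The part of this list in the lower collagen I, Sparc and Ifitm5 was not tested. The fibroblast and tendon list (8 of 8 tested, 4 negative and 4 positive, 0 called) was highest in mutant replicate 2, at 0.44, with sums of 453 to 504 FPKM in control and 427 to 580 FPKM in mutant. The skeletal muscle list (10 of 10 positive, 0 called) stood at 0.58, 1.45 and 0.23 in mutant, with sums of 272 to 460 FPKM in control and 399 to 1039 FPKM in mutant. With the muscle mean as a covariate all members but Col5a3 (0.069) had negative differences, none of them called. In that fit Col3a1 stood at -0.12, Col5a1 at -0.32 (limma adjusted p = 0.316, the lowest of the members), Col5a2 at -0.25 and Col24a1 at -0.0032. Col1a1 stood at -0.34, Col1a2 at -0.31, Sparc at -0.32 and Ifitm5 at -0.46. The cartilage list had negative changes in all 8 tested members, with 5 called, and the skin and oral epithelium list was positive in 8 of 8 with 0 called, with sums of 680 to 1633 FPKM in control and 1829 to 2015 FPKM in mutant.

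The sex of the embryos is not in the labels. Read from Xist and Y-linked genes, all 3 controls and 1 mutant library (replicate 1) were female and the other mutant libraries male. Against the 3 female controls, the female mutant alone stood at -0.22 for Col1a1, -0.25 for Col1a2, -0.20 for Sparc and -0.33 for Ifitm5, which is also the estimate with sex as a covariate, and no member then had an unadjusted limma p under 0.05. With 1 female mutant library this gives no spread of its own.

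Genes that act with these collagens were described by lists. For comparison, 50.8% of changes were negative over all genes tested, with 0.203% of genes called lower and 0.0610% called higher. Among 16 bone matrix and osteoblast genes, 12 changes were negative (median -0.22), 0 were called lower and 1, Sost, was called higher. Sost, which encodes the osteocyte Wnt inhibitor sclerostin, went from 2.42 ± 0.26 to 8.19 ± 1.84 FPKM (SD, n = 3 each, log2 difference 1.41, limma adjusted p = 0.0228), a call lost without any control library or without mutant replicate 1 or 3 (limma adjusted p from 0.0552 to 0.104). The list's most abundant members were Spp1, which encodes osteopontin, at 1129 ± 368 FPKM in control against 741 ± 141 FPKM in mutant, and Ibsp, which encodes bone sialoprotein, at 953 ± 187 and 895 ± 108 FPKM (SD, n = 3 each). Neither was called (limma adjusted p of 0.449 and 0.900). The log2 difference of Spp1 was -0.57, and it was -0.34 without control replicate 3 and -0.83 without control replicate 2. Ibsp had a log2 difference of -0.078, and the interval of its change, -0.45 to 0.29, contains the values of collagen I. Pth1r, the floxed gene itself, measured 68.0 ± 11.1 and 75.1 ± 4.73 FPKM, and a level of the whole gene does not check the labels because the floxed part is not given.

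Among 19 genes of procollagen synthesis and processing, 17 changes were negative (median -0.16), with 1 called lower and 0 higher. The called gene was Plod2, which encodes a lysyl hydroxylase that prepares collagen for cross-linking. It stood at 38.5, 38.4 and 38.4 FPKM in the controls against 25.7, 26.3 and 29.3 FPKM in the mutants (log2 difference -0.49, limma adjusted p = 0.0267). Its call was lost without any one control library or without mutant replicate 1 or 2 (limma adjusted p from 0.0793 to 0.127). Serpinh1, which encodes the collagen chaperone HSP47, went from 829 ± 113 to 685 ± 31.3 FPKM, and P4hb, a subunit of prolyl hydroxylase, from 429 ± 28.4 to 381 ± 6.44 FPKM (SD, n = 3 each), with limma adjusted p of 0.396 and 0.368.

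Among 20 fibrous matrix partners of collagen fibrils, 13 changes were positive and 7 negative (median 0.065), with 1 called lower and 0 higher. Fmod, which encodes the fibril-binding proteoglycan fibromodulin, fell from 55.9, 50.2 and 64.0 FPKM in the controls to 32.1, 34.3 and 30.1 FPKM in the mutants (log2 difference -0.79, limma adjusted p = 0.0267). That call was lost without control replicate 1 or 3 or mutant replicate 1 or 3 (limma adjusted p from 0.0586 to 0.1185). The most abundant members, Bgn, the proteoglycan biglycan, and Postn, the matricellular protein periostin, had log2 differences of -0.021 and 0.13 (limma adjusted p of 0.948 and 0.820).

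The 4 fibrillar collagens of cartilage all had negative changes (median -0.86) and groups that did not overlap, and 2 were called, Col2a1 (log2 difference -1.99, limma adjusted p = 0.0267) and Col11a1 (-0.81, limma adjusted p = 0.0330). Over all genes tested 9.16% had lower mutant groups without overlap, and 0.203% were called lower. The calls of Col2a1 and Col11a1 were both lost without any 1 control library or without mutant replicate 1, and that of Col11a1 also without mutant replicate 2. The calls of Sost, Plod2, Fmod, Col2a1 and Col11a1 were also each lost with no filter on low values (limma adjusted p from 0.0595 to 0.0694), with sex as a covariate (0.204 to 0.406) and with the muscle mean as a covariate (0.0871 to 0.2004), and all but that of Sost without the variance trend (0.0591 to 0.0758). With robust variances the call of Col2a1 was lost (limma adjusted p = 0.0905). Under the covariates the differences themselves kept their direction. With sex and with the muscle mean they were 1.56 and 1.66 for Sost, -0.56 and -0.43 for Plod2, -0.80 and -0.92 for Fmod, -2.14 and -1.60 for Col2a1, and -0.86 and -0.69 for Col11a1. With sex as a covariate each estimate was that of mutant replicate 1 against the controls. The groups of these genes did not overlap, so the direction could not change in that fit. Col11a2, the other abundant chain gene, had a log2 difference of -0.91 (limma adjusted p = 0.118) and was called with library weights (limma adjusted p = 0.0483). The ratio of Col2a1 to Col1a1, chosen after its values were seen, ranged from 0.134 to 0.152 in control and from 0.0361 to 0.0671 in mutant, separated with an exact permutation p of 0.1, the smallest possible. The relatives of Ifitm5 and Sparc held no called gene. In the Ifitm family, whose Ifitm2 lies 4545 bp from Ifitm5, 4 of 6 genes were tested, with log2 differences of -0.11 for Ifitm2 and 0.054 for Ifitm1. In the Sparc family 6 of 7 changes were positive, with 0.065 for Sparcl1 and -0.0077 for Fstl1.

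**Figure D5:**
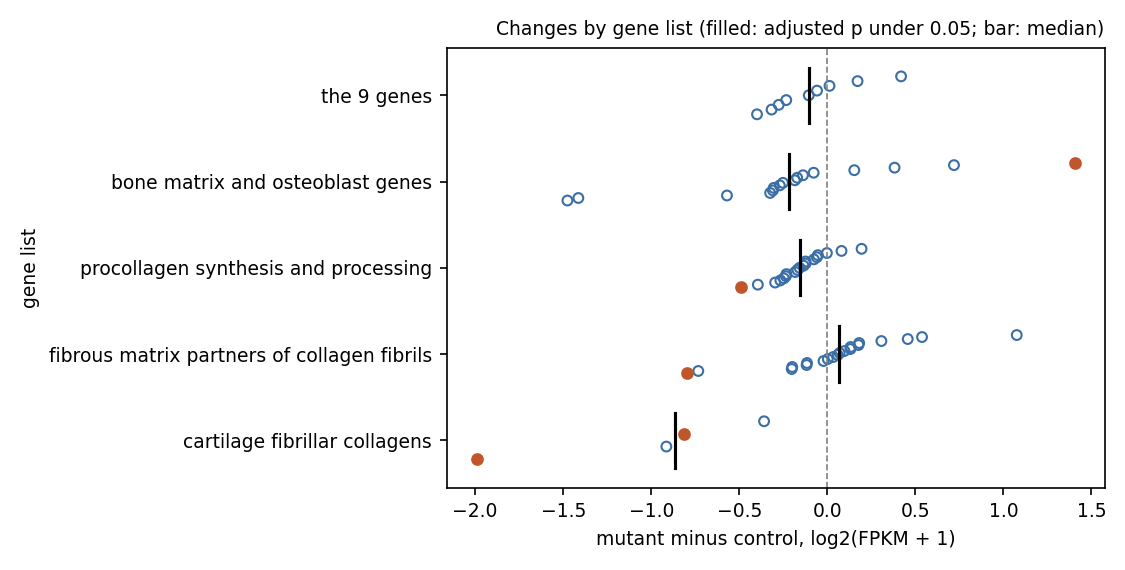
Difference between mutant and control on the log2(FPKM + 1) scale (horizontal axis) for the 9 genes and for 4 lists of related genes, 1 point per gene, filled where the limma adjusted p was under 0.05, with the list median as a bar. The medians are -0.11 for the 9 genes, -0.22 for bone matrix and osteoblast genes, -0.16 for procollagen processing, 0.065 for fibrous matrix partners and -0.86 for cartilage fibrillar collagens.

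The genes whose log2 levels most resembled Col1a1 over the 6 libraries, among the 11190 other genes averaging 5 FPKM or more, were Rpl36al, Sept10, Myo19, Fkbp11 and Rpl6, with Pearson r from 0.985 to 0.993 given as a description. Their own differences were small, from -0.055 for Rpl6 to -0.22 for Fkbp11, a gene for a prolyl isomerase of the secretory pathway. Those most like Ifitm5 were Tmem98, Glb1, Fam3c, Eprs and Rnf126, with r from 0.988 to 0.994 and differences from -0.10 to -0.16. The points of each comparison share their libraries, the contrast between genotypes included.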

How the data were processed

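Messenger RNA of 6 libraries, 3 control and 3 mutant by the genotype label, was analysed from FPKM values deposited by the authors, 1 per gene symbol, per the file headers. The submitters' processing notes name Cuffdiff 2.2.1, SAMtools 0.1.18, TopHat2 2.1.1 and Bowtie2 2.2.8 and the build mm10. The sources used here give no annotation, strand setting or scaling between libraries. FPKM are not counts, so log2(FPKM + 1) was fitted with limma 3.58.1 in R 4.3.3 (eBayes with trend, two-sided, no covariate, 4 residual degrees of freedom) over the 14766 genes averaging 1 FPKM or more, with Benjamini-Hochberg adjustment over all of them. On simulated data for mutant against control, with 200 of 14766 genes changed, the fit recovered 89.3% of 2-fold and 97.6% of 4-fold changes, and 4.63% of calls were false. The simulated noise was independent between genes, without variation shared by a library. No change smaller than 2-fold was simulated, and all member changes were smaller. The simulation therefore does not tell how often changes of the members' size would be called. Ratios of FPKM were compared by exact permutation. The members and lists were chosen with earlier results of these data known. Named genes were the members, the 2 most abundant and any called gene of each pathway list (not of the cell type marker lists), and the 5 most correlated with Col1a1 and with Ifitm5. Pth1r was added as the floxed gene. Other choices made after seeing values are marked where they occur. Alternatives were other pseudocounts, filters, scalings, variance settings, library weights, an adjusted p under 0.1, sex or muscle markers as covariates, and leaving out each library. Plots used matplotlib 3.10.9.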

Additional observations from a re-analysis of the deposited data

How the results depend on the processing

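The number of the 9 members called by limma was 0 in the reported fit, in all 18 refits and at an adjusted p under 0.1, and ran from 0 to 0 with each library left out, with between 0 and 5 members at an unadjusted p under 0.05 and lower in mutant. The directions of Col1a1, Col1a2, Sparc, Ifitm5, Col5a2 and Col5a3 held in all 18 refits. Col3a1 changed sign with the muscle list as covariate (-0.12). Col24a1 did so with library weights (-0.022), sex (-0.047) or the muscle list (-0.0032) as covariate, and ran from -0.077 to 0.11 with each library left out, as Col5a1 ran from -0.15 to 0.058. Of the other named genes, leaving out each library gave -0.25 to 0.018 for Ibsp, -0.090 to 0.020 for Bgn, -0.056 to 0.30 for Postn, -0.084 to 0.18 for Ifitm1, -0.079 to 0.15 for Sparcl1 and -0.14 to 0.090 for Fstl1. Quantile normalization gave 0.015 for Ibsp, 0.049 for Bgn, 0.038 for Fstl1 and 0.032 for Rpl6, and, with no change of sign, -0.16 for Serpinh1, -0.086 for P4hb and -0.013 for Ifitm2, and upper quartile scaling 0.0042 for Fstl1. With sex as covariate Ifitm1 was at -0.022 and Sparcl1 at -0.043, and with the muscle list Postn was at -0.27, Sparcl1 at -0.22, Bgn at -0.18 and Fstl1 at -0.26. The causes were not tested. The 5 ratios between members kept their directions without each library and with 1 added to FPKM. The ranges without each library were 0.017 to 0.075 for Col1a2 to Col1a1, 0.31 to 0.60 for Col3a1 to Col1a1, -0.11 to -0.0022 for Col5a2 to Col5a1, 0.27 to 0.41 for Col24a1 to Col1a1 and -0.20 to -0.14 for Ifitm5 to Sparc. No paired analysis was possible because the labels give no replicate numbers that pair controls with mutants. Over all genes the calls were 39 in the reported fit, 18 with no filter, 19 without trend, 71 with library weights, 10 with sex and 5 with the muscle list as covariate. With each library left out they ran from 17 (without control replicate 2) to 44 (without mutant replicate 3).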
